A study of Homo sapiens with 12 samples.

Results

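CISD1, CISD2, NFS1, ISCU, SLC25A37 and SLC25A28 are 6 human genes of iron-sulphur cluster chemistry and mitochondrial iron import, and they were taken by gene name from 6 lists of m1A peaks. All 6 genes had a peak in at least 1 list, out of 10226 genes with a peak in any list. Together they carried 43 peaks, of which 29 came from ALKBH3 knockdown cells and 14 from control cells. The peaks are stretches of mRNA enriched by an antibody against N1-methyladenosine (m1A), a methyl mark on the base-pairing face of adenine.

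Iron-sulphur clusters are small cofactors of iron and sulphide that carry electrons in respiration and serve enzymes of metabolism and DNA repair. They are built inside mitochondria: NFS1 takes sulphur from cysteine, ISCU is the scaffold on which the cluster forms, and SLC25A37 (mitoferrin-1) and SLC25A28 (mitoferrin-2) bring iron across the inner membrane. CISD1 (mitoNEET) holds a cluster on the outer face of mitochondria, CISD2 does so on the endoplasmic reticulum and its contacts with mitochondria, and both are known to bear on how much iron mitochondria hold. Iron left in a free, reactive form can feed lipid peroxidation and ferroptosis, the iron-dependent cell death that erastin provokes. ALKBH3 is an enzyme that removes methyl groups from alkylated nucleic acids, m1A in RNA among them.

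The cells were SNU-668, an established human gastric cancer line, and every group was an erastin-resistant derivative of it. All sample titles begin with the prefix RLS3, which the labels do not explain. The knockdown cells had received an shRNA against ALKBH3 (labelled ALKBH3 knockdown) and the control cells a control shRNA named NC (labelled WT), with 3 replicates each. Each replicate gave an m1A pull-down library and an input library, so that 12 samples stand behind 6 peak lists, 1 for each pull-down. The labels do not say whether the replicates were separate cultures or clones, so the p-values reflect no more than the variation among these samples, possibly technical.

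The lists differed several-fold in length within each group. Knockdown lists 1 to 3 held 34691, 13056 and 8474 distinct peaks, and control lists 1 to 3 held 5015, 4894 and 15130. The lists give no read counts, so depth is unknown, and the part of depth or of transcript amount in any difference below was not tested. ALKBH3 itself had 1 peak, in knockdown list 1 (chromosome 11, 43904645 to 43904694, coding sequence, log2 enrichment 2.31), which is no measure of its mRNA, so the lists cannot check the knockdown. Of 8 epithelial markers 6 had a peak in some list and CDH1 and CLDN18 had none. KRT8 and KRT18 had peaks in 3 knockdown and 3 control lists, and KRT19 in 3 and 2. EPCAM had them in 1 knockdown and 2 control lists, VIL1 in 2 and 0, and CLDN7 in 1 and 0. Of 6 markers of other cell types CD68 had peaks in 3 knockdown and 3 control lists and COL1A1 in 3 and 2. The leukocyte genes PTPRC and CD3E, the endothelial PECAM1 and the fibroblast gene DCN had none, although the presence of a peak is no measure of expression.

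The longest list of each group held the most of these genes. Of the 6 genes, 6, 3 and 1 had a peak in knockdown lists 1 to 3, against 0, 2 and 5 in control lists 1 to 3. Of all 10226 genes, 82.4%, 58.7% and 43.8% had a peak in the knockdown lists, against 27.4%, 28.7% and 58.9% in the control lists. The groups overlapped: control list 3 held more of the 6 genes than knockdown lists 2 and 3 did, and control list 1 held none. Their peaks numbered 20, 8 and 1 in the knockdown lists, against 0, 3 and 11 in the control lists. Set against list length, this was 0.577, 0.613 and 0.118 peaks per 1000 of the list in knockdown cells, against 0, 0.613 and 0.727 per 1000 in control cells.

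**Figure D1:**
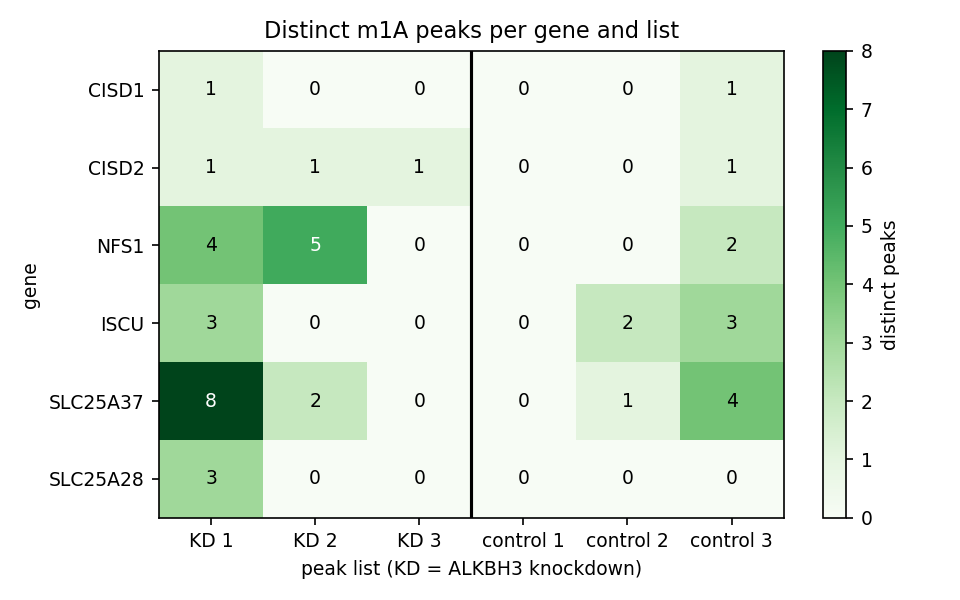
Distinct m1A peaks of each gene (rows) in each peak list (columns), with the 3 ALKBH3 knockdown lists (KD) left of the line and the 3 control lists right of it, darker squares holding more peaks. Most peaks sit in the columns of knockdown list 1, knockdown list 2 and control list 3, and the column of control list 1 is empty.

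CISD2 was the only one of the 6 genes whose count of lists differed between the groups by 2 or more: it had a peak in 3 of 3 knockdown lists, against 1 of 3 control lists. Over all 10226 genes, 20.1% had such an excess of 2 or more knockdown lists and 1.76% one of 2 or more control lists. A count of 1 in 6 lies near the first share and is no result about these genes. NFS1 and SLC25A28 had a peak in 1 more knockdown list, CISD1 and SLC25A37 in equally many lists of each group, and ISCU in 1 more control list. Of all 10226 genes, 6236 had a peak in more knockdown lists, 2728 in equally many and 1262 in more control lists. The median difference was 0.5 lists for the 6 genes and 1 list for all genes, positive values meaning more knockdown lists. None of the 6 passed the two-sided exact permutation test over the 20 splits of the lists (p = 0.4 for CISD2 and 1 for each of the others). With 3 lists against 3 this test cannot give a p below 0.1, and adjusted p (Benjamini-Hochberg) was 1 for every gene tested.

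CISD1 had 1 peak in each group, at different places. In knockdown list 1 the peak lay in the coding sequence on chromosome 10 (plus strand, 60036911 to 60036985, build hg19 as everywhere here), with a log2 enrichment of 2.67. In control list 3 it lay 10379 bases further along, also in coding sequence (60047365 to 60047389), with a log2 enrichment of 1.38. The knockdown peak ranked at percentile 81.6 of its list by enrichment and the control peak at percentile 19.4 of its own. These enrichments are the authors' values per peak, read as pull-down over input, and they rank peaks within a list only. CISD1 had 0.0288, 0 and 0 peaks per 1000 in knockdown lists 1 to 3, against 0, 0 and 0.0661 per 1000 in control lists 1 to 3. The means, 0.00961 ± 0.0166 in knockdown cells and 0.0220 ± 0.0382 in control cells (SD, n = 3 each), gave a difference within this spread (exact permutation p = 1), and it turned positive, to 0.00961, without control list 3.

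CISD2 had a single peak in each list that held one, on the plus strand of chromosome 4. In knockdown list 3 it ran from 103808568 to 103808667, across the end of the coding sequence into the 3′ UTR, with a log2 enrichment of 1.96 (percentile 43.7). In knockdown list 2 it ran from 103808643 to 103808892 in the 3′ UTR, with a log2 enrichment of 2.57 (percentile 60.7). These 2 peaks shared 25 bases, and this was the only position of the 6 genes that 2 lists of the same group had in common. The peak of control list 3 lay in the same 3′ UTR, 150 bases beyond that of knockdown list 2 (103809043 to 103809117), with a log2 enrichment of 2.02 (percentile 47.7). That gap is shorter than the RNA fragments of about 300 nt that were pulled down. The other knockdown peak, in list 1, stood apart: it was a stretch of 25 bases in coding sequence 2110 bases upstream (103806433 to 103806457), with a log2 enrichment of 1.44 (percentile 14.6). A peak of SLC9B1, the gene on the opposite strand, lay 28 bases from it in the same list with a log2 enrichment of 1.61. The libraries came from a stranded kit, but the sources used here do not say that peak calling used the strand, so reads of these 2 genes cannot be told apart with certainty.

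Per 1000 peaks of the list, CISD2 had 0.0288, 0.0766 and 0.118 in knockdown lists 1 to 3, against 0, 0 and 0.0661 in control lists 1 to 3. The lowest knockdown value lay below the highest control value, so the groups overlapped. The means were 0.0745 ± 0.0446 in knockdown cells and 0.0220 ± 0.0382 in control cells (SD, n = 3 each; exact permutation p = 0.2, adjusted p = 1). The difference of 0.0524 per 1000 was 0.0307 without knockdown list 3. The count of 3 lists against 1 depended on the limit set: with only peaks of at least 4-fold enrichment, or log2 2, CISD2 had 1 knockdown list against 1 control list. The peak of knockdown list 3, at log2 1.96, fell just short of that limit, and that of control list 3, at 2.02, just passed. CISD2 also lost its excess of 2 lists when every list was limited to its 4894 most enriched peaks, the length of the shortest list. The same held for peaks whose false discovery rate had a -log10 of 10 or more, a limit chosen after the data were seen. Only the CISD2 peak of knockdown list 3 reached it.

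**Figure D2:**
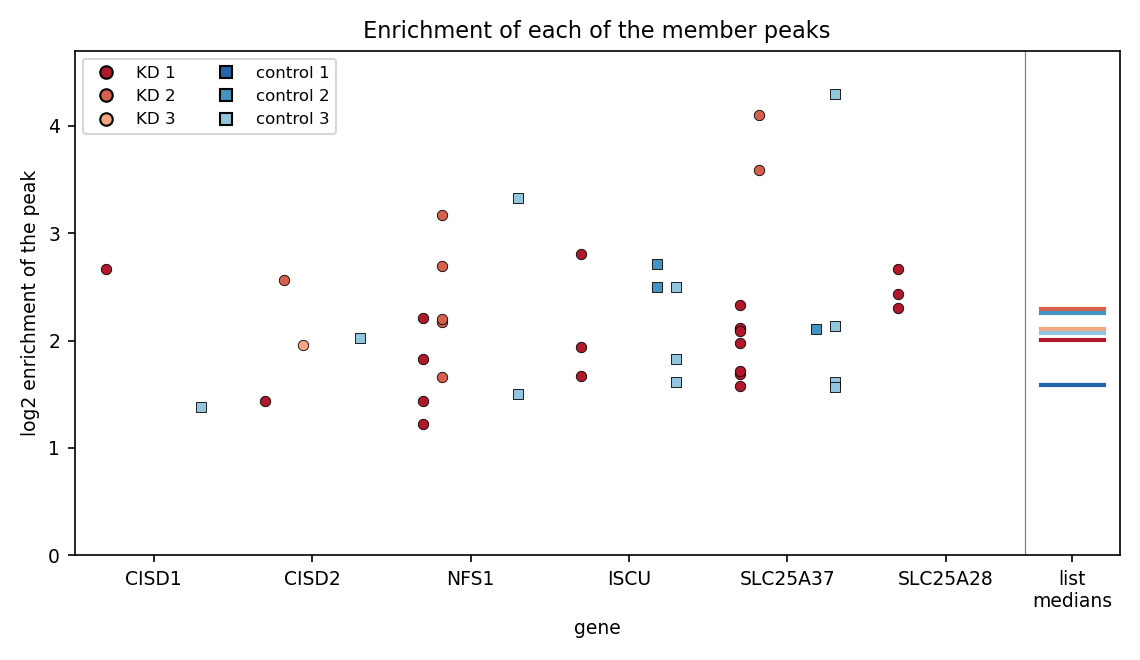
Log2 enrichment of every peak of the 6 genes (vertical axis, the authors' values) by gene, with knockdown lists (KD) as circles left of control lists as squares, and the median of all peaks of each list as bars at the right. Most peaks lie between 1.23 and 2.80; above them stand peaks of NFS1 up to 3.32 and peaks of SLC25A37 in knockdown list 2 and control list 3 up to 4.30.

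NFS1, the cysteine desulphurase, had 4, 5 and 0 peaks in knockdown lists 1 to 3, against 0, 0 and 2 in control lists 1 to 3. It lies on the minus strand of chromosome 20, so that its 5′ end has the highest coordinates. The most enriched NFS1 peak of each of 2 lists met at that end: knockdown list 2 had a peak at 34285689 to 34285713 with a log2 enrichment of 3.17 (percentile 78.0), and control list 3 a peak in 3 exonic blocks between 34285689 and 34287119 with a log2 enrichment of 3.32 (percentile 87.0). The control peak also covered a further peak of knockdown list 2 at 34286419 to 34286443 (log2 enrichment 2.69). Depending on the transcript, the annotation places these bases in the 5′ UTR or in the coding sequence. The 5′ end of NFS1 thus held a peak in 1 list of each group.

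The other peaks of NFS1 were not shared between lists. Knockdown list 1 had 2 peaks in coding exons (34268705 to 34268754, log2 enrichment 1.83, and 34269821 to 34269845, log2 enrichment 1.23, the weakest of the 43). It had another one beside the weakest (34269871 to 34269895, log2 enrichment 1.44) and a spliced one from the last coding exon into the 3′ UTR (34257452 to 34260720, log2 enrichment 2.21). Knockdown list 2 had 2 peaks within the 3′ UTR (34256902 to 34256951, log2 enrichment 2.17, and 34256977 to 34257076, log2 enrichment 1.66) and a spliced peak in coding sequence (34262325 to 34262454, log2 enrichment 2.20). The second peak of control list 3 joined 2 exonic blocks between 34282794 and 34286677 (log2 enrichment 1.51). The nearest peaks of knockdown lists 1 and 2 in the 3′ UTR were 375 bases apart, more than a fragment length. NFS1 had 0.115, 0.383 and 0 peaks per 1000 in the knockdown lists, against 0, 0 and 0.132 in the control lists. Means of 0.166 ± 0.196 in knockdown cells and 0.0441 ± 0.0763 in control cells (SD, n = 3 each) differed by less than the knockdown SD (exact permutation p = 0.7, adjusted p = 1). The difference of 0.122 per 1000 was 0.0136 without knockdown list 2.

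ISCU, the scaffold, was the one gene of the 6 found in more lists of control cells than of knockdown cells, with 3, 0 and 0 peaks in knockdown lists 1 to 3, against 0, 2 and 3 in control lists 1 to 3. Among all 10226 genes 1262 had this direction, so 1 gene in 6 is no result about ISCU. The gene lies on the plus strand of chromosome 12. Near the start of the coding sequence, knockdown list 1 had a peak across the 5′ UTR and the first codons (108957858 to 108957907, log2 enrichment 2.80, percentile 85.4). A spliced coding peak of 450 exonic bases followed in the same list (108958133 to 108959188, log2 enrichment 1.94), the widest of all 43. The coding peak of control list 3 (108957983 to 108958157, log2 enrichment 2.50, percentile 67.0) lay between them and shared 25 bases with the spliced one. The 5′ part of ISCU thus held peaks in 1 list of each group.

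At the 3′ end of ISCU the peaks came from both control lists that held any. Control list 2 had peaks at 108963047 to 108963096 (log2 enrichment 2.50, percentile 58.8) and at 108963122 to 108963146 (log2 enrichment 2.72, percentile 65.8), both in the 3′ UTR. Control list 3 had peaks at 108962647 to 108962746 (log2 enrichment 1.61) and at 108962772 to 108962821 (log2 enrichment 1.83). They did not overlap those of control list 2 and ended 225 bases short of them. No knockdown list had a peak in this stretch, and the nearest, in knockdown list 1, lay 675 bases upstream in the 3′ UTR of another transcript (108961847 to 108961971, log2 enrichment 1.67). ISCU had 0.0865, 0 and 0 peaks per 1000 in the knockdown lists, against 0, 0.409 and 0.198 in the control lists. The knockdown value of list 1 lay between control values, so the groups overlapped. Means were 0.0288 ± 0.0499 in knockdown cells and 0.202 ± 0.204 in control cells (SD, n = 3 each; exact permutation p = 0.4, adjusted p = 1). The difference of -0.173 per 1000 was -0.0703 without control list 2 and -0.275 without control list 1.

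**Figure D3:**
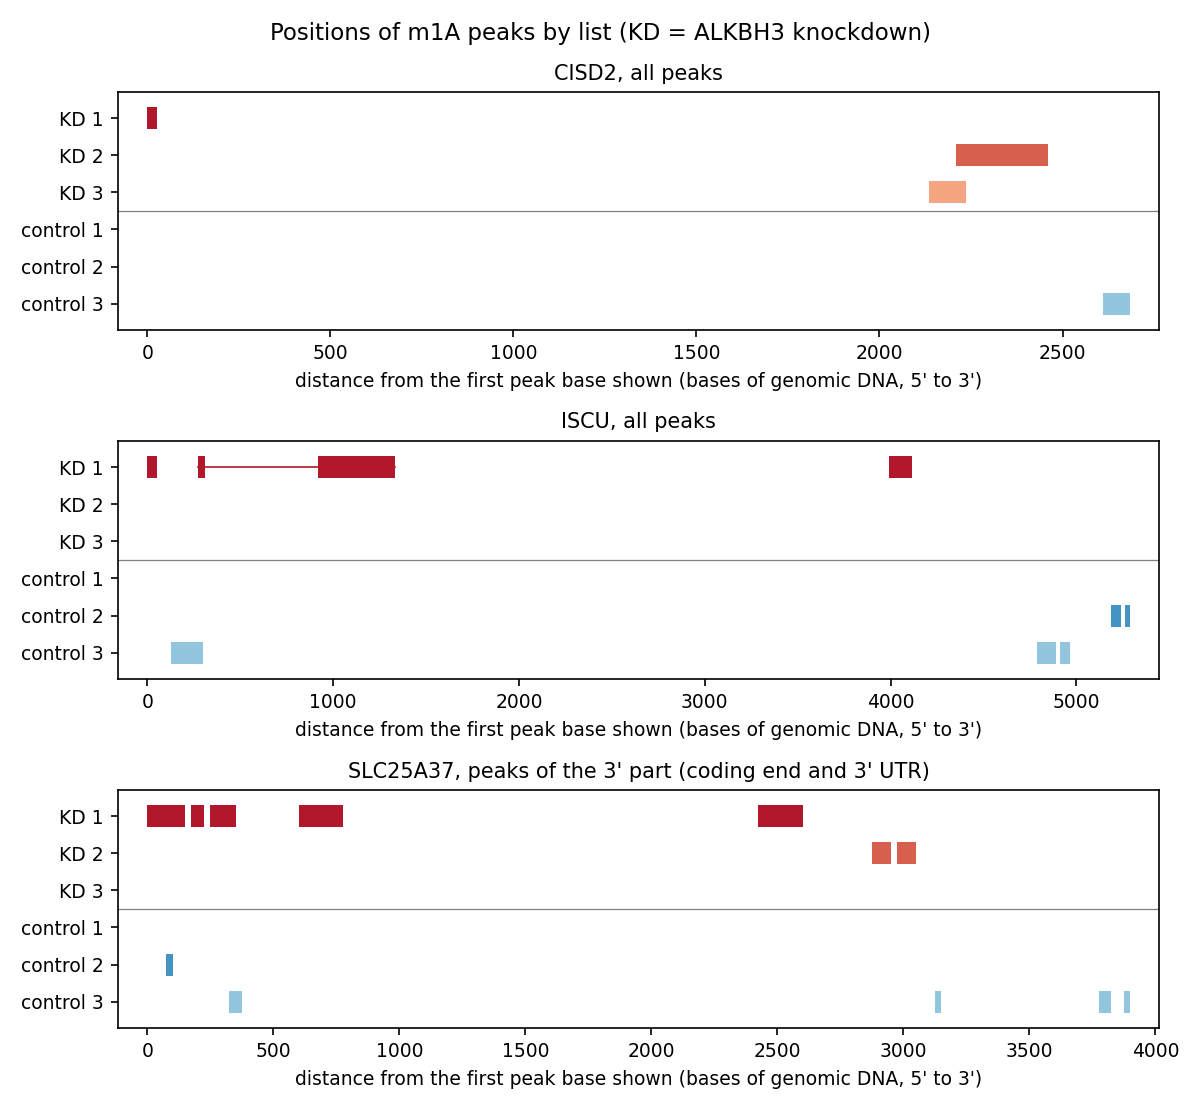
Positions of the peaks of CISD2, ISCU and the 3′ part of SLC25A37 in each list, with knockdown lists (KD) above the line and control lists below it; the horizontal axis is the distance in genomic bases from the first peak base shown, boxes are exonic blocks and thin lines join blocks across an intron. Overlaps between rows are short, 25 bases each, and the 3′ peaks of ISCU lie in control lists 2 and 3.

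SLC25A37, mitoferrin-1, the iron importer known from developing red cells, carried the most peaks of the 6 genes. It had 8, 2 and 0 peaks in knockdown lists 1 to 3, against 0, 1 and 4 in control lists 1 to 3. Among the transcripts listed with the peaks, its longest was also the longest of the 6 genes, 4823 nt, against 1330 to 3012 nt for the others. Peak counts are not corrected for length. On the plus strand of chromosome 8, the most enriched peaks of all 43 lay close together in its 3′ UTR. Knockdown list 2 had peaks at 23431732 to 23431806 (log2 enrichment 3.59, percentile 85.9) and at 23431832 to 23431906 (log2 enrichment 4.10, percentile 92.5). Control list 3 had one at 23431982 to 23432006 (log2 enrichment 4.30, percentile 96.1), 75 bases beyond. They did not overlap, but the gap is under a fragment length. The peaks of 4.10 and 4.30 were the only 2 of the 43 in the top decile of their list.

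The same 3′ UTR held weaker peaks on either side. Knockdown list 1 had peaks upstream, at 23431282 to 23431456 (log2 enrichment 2.33) and at 23429457 to 23429631 (log2 enrichment 2.09). Control list 3 had peaks downstream, at 23432632 to 23432681 (log2 enrichment 1.61) and 23432732 to 23432756 (log2 enrichment 1.57). The files also assign 6 peaks of this 3′ UTR, all from 23431282 onwards, to a gene named FP15737 on the same strand, so the 2 genes cannot be told apart there.

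Around the end of its coding sequence SLC25A37 had 2 positions shared between groups. A peak of knockdown list 1 (23428857 to 23429006, log2 enrichment 1.72) enclosed the single peak of control list 2 (23428932 to 23428956, log2 enrichment 2.11). The next shared position paired knockdown list 1 (23429107 to 23429206, log2 enrichment 2.11) with control list 3 (23429182 to 23429231, log2 enrichment 2.14), over 25 bases. Knockdown list 1 had a further peak between these positions (23429032 to 23429081, log2 enrichment 2.11). The remaining 3 peaks of that list lay in coding sequence upstream, with log2 enrichments of 1.98 (a spliced peak, 23386618 to 23423637), 1.69 (23423813 to 23424062) and 1.58 (23425838 to 23425912). No other list had a peak in the upstream coding sequence. SLC25A37 had 0.231, 0.153 and 0 peaks per 1000 in the knockdown lists, against 0, 0.204 and 0.264 in the control lists. The groups overlapped almost wholly, with means of 0.128 ± 0.117 in knockdown cells and 0.156 ± 0.139 in control cells (SD, n = 3 each; exact permutation p = 0.8). The difference of -0.0283 per 1000 turned positive without knockdown list 3 (0.0357) or without control list 3 (0.0258).

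SLC25A28, mitoferrin-2, which imports iron in most tissues, had peaks in knockdown list 1 alone, the longest list. On the minus strand of chromosome 10 these were a 3′ UTR peak at 101370332 to 101370506 (log2 enrichment 2.66, percentile 81.4) and 2 coding peaks at 101370882 to 101370931 (log2 enrichment 2.43, percentile 73.0) and 101370957 to 101370981 (log2 enrichment 2.30, percentile 67.0). All 3 lay above the median of that list, 2.00. SLC25A28 had 0.0865, 0 and 0 peaks per 1000 in the knockdown lists, against 0 in each control list. The exact permutation p was 1, and without knockdown list 1 no peak was left. Both mitoferrins thus had a peak in list 1 of the knockdown group, and only SLC25A37 had peaks elsewhere; the difference between the genes was not tested.

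Between lists the 43 peaks coincided seldom and briefly. Joined wherever same-strand peaks had 1 or more bases in common, they made 37 positions, of which 5 (13.5%) were held by 2 lists and none by 3 or more. Over all genes 57090 positions were formed, of which 10908 (19.1%) were held by at least 2 lists. Of the 5 shared positions of the 6 genes, 4 joined a knockdown list to a control list (NFS1, ISCU and 2 in SLC25A37) and 1 joined 2 knockdown lists (CISD2). Each overlap covered 25 bases, and none reached 50% of both peaks. In all, 11 of the 43 peaks (25.6%) overlapped a peak of another list, against 38570 (47.5%) of all 81260 peaks. Within 300 bases of a peak in another list lay 24 of the 43 peaks (55.8%), against 63.2% of all peaks. The 6 genes are too few, and were chosen with results of these data known, for such shares to set them apart from other genes.

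The peaks were narrow and of ordinary strength for their lists. Exonic widths ran from 25 to 450 bases with a median of 50, always in steps of 25, and 12 peaks were a single step wide. Log2 enrichment ran from 1.23 to 4.30 with a median of 2.11, and 25 peaks (17 in knockdown and 8 in control lists) reached 4-fold. Of the 43 peaks, 21 lay above the median of their own list, 15 of 29 in knockdown and 6 of 14 in control lists. By annotation 15 peaks lay in coding sequence alone, 16 in the 3′ UTR alone, 2 across the stop codon and 1 across the start codon, and for 9 the region differed between transcripts. None lay in the 5′ UTR alone by all of its transcripts. Coding sequence alone held 12 of 29 knockdown peaks, 20 of the 29 being from list 1, against 3 of 14 control peaks. The 3′ UTR alone held 9 of 29 knockdown peaks against 7 of 14 control peaks. Over all genes the coding share was higher in each knockdown list than in any control list, at 55.7%, 45.3% and 39.9%, against 26.0%, 25.3% and 37.7% in the control lists. The share in the 3′ UTR alone over all genes was lower, at 19.7%, 39.2% and 44.1%, against 57.5%, 59.6% and 44.3% in the control lists.

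Other genes of the pathway were listed by function. Of 16 further genes of mitochondrial iron-sulphur assembly 9 had a peak, and knockdown lists 1 to 3 held 9, 2 and 1 of these genes, against 2, 2 and 3 in control lists 1 to 3. The shares of all genes were 82.4%, 58.7% and 43.8% in the knockdown lists, against 27.4%, 28.7% and 58.9% in the control lists. None of the 9 genes had an excess of 2 lists in either group. CISD3, the mitochondrial matrix relative of CISD1 and CISD2, matched CISD2 in count, with a peak in 3 knockdown lists (best log2 enrichments 2.83, 1.46 and 1.44) against 1 control list (1.89). CISD2 and CISD3 thus occurred in the same 4 lists, every knockdown list plus control list 3, and CISD1 in 2 of these. R3HDM4, matched to CISD2 by profile below, had peaks in the same 4 lists. With 20.1% of all genes having an excess of 2 or more knockdown lists, this is no result about the CISD genes.

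Of 11 genes of cytosolic iron-sulphur assembly 10 had a peak, 2 of them with an excess of 2 knockdown lists and 1 with an excess of 2 control lists. Of all genes, 20.1% had the first kind of excess and 1.76% the second. With so few genes, neither 2 of 10 nor 1 of 10 is a result about this group. GLRX3, a glutaredoxin that handles cytosolic clusters, reached log2 enrichments of 3.79, 1.44 and 1.33 at its best peaks in knockdown cells, against a single control value of 1.56 in list 2. NDOR1, the reductase that feeds electrons to this pathway, had 3.58 in knockdown list 1 and 2.70 in knockdown list 3, with no control peak. FAM96B (CIAO2B), part of the complex that hands clusters to target proteins, ran the other way, with 1.58 in knockdown list 1 alone against 1.07, 1.37 and 1.01 in the control lists.

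All 10 genes of mitochondrial haem synthesis and transport had a peak, in 10, 6 and 3 genes of knockdown lists 1 to 3, against 2, 2 and 7 genes of control lists 1 to 3. The shares of all genes were 82.4%, 58.7% and 43.8%, against 27.4%, 28.7% and 58.9%. Of the 10 genes 3 had an excess of 2 knockdown lists, as had 20.1% of all genes with 2 or more. With so few genes this is no result about the group. FECH, which inserts iron into haem, and ABCB6, a porphyrin transporter, each had peaks in knockdown lists 1 and 2 and in no control list (FECH 2.74 and 2.00, ABCB6 2.58 and 2.08, best log2 enrichments). SFXN1, a mitochondrial serine carrier, had 2.80, 3.77 and 1.90 in the knockdown lists against 5.81 in control list 3, and no peak in the other control lists. Among 12 enzymes and other proteins that carry iron-sulphur clusters, all with a peak, 2 had an excess of 2 knockdown lists. Set against 20.1% of all genes, this is no result about the group either. The 2 were NDUFS1 of respiratory complex I (1.99 in knockdown list 1 and 1.55 in knockdown list 2, no control peak) and CISD3. In each of these 4 groups the median difference was 1 list towards the knockdown, the same as over all genes.

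**Figure D4:**
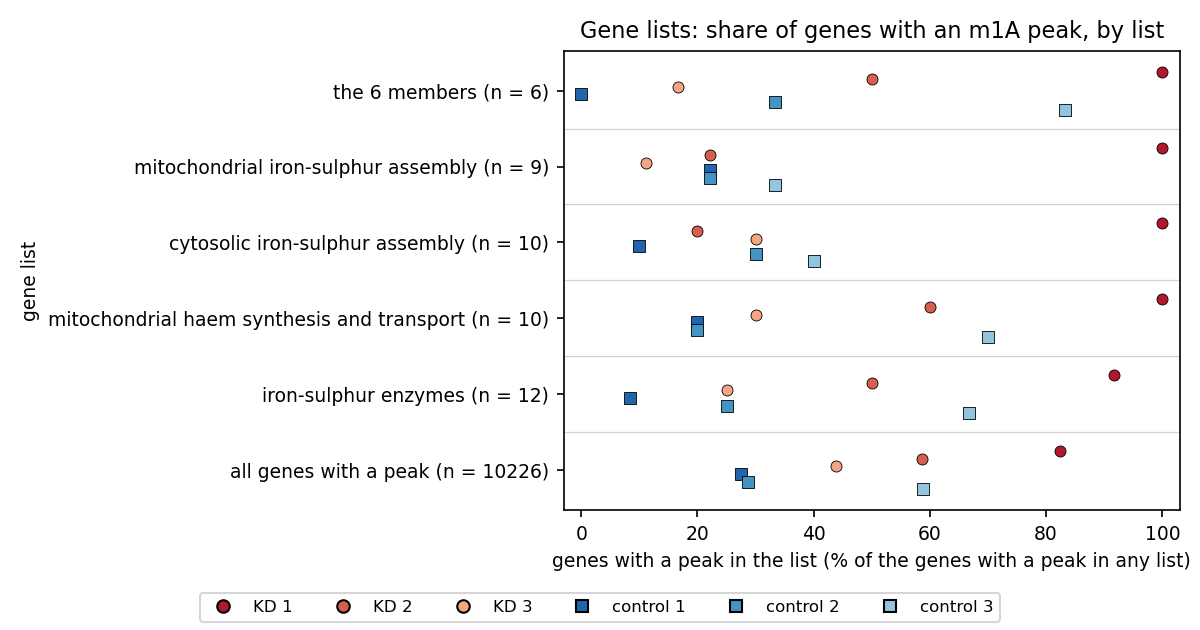
Share of genes with an m1A peak in each list (horizontal axis, percent of the genes that had a peak in any list) for the 6 genes, the 4 related groups and all genes, with knockdown lists (KD) as circles above control lists as squares. In every row knockdown list 1 is at the right, and control list 3 lies further right than at least 1 knockdown list.

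Genes with a similar profile were sought by the Euclidean distance between percentiles of the best peak over the 6 lists, set to 0 where a list had no peak. R3HDM4 (distance 20.7) and BCL2L2 (24.5) were nearest to CISD2, and BCL2L2 lacked a peak in knockdown list 1, where that of CISD2 was weak. AKIRIN2 (2.94) and ZNF783 (5.36) were nearest to NFS1. For ISCU they were CEBPG (8.05) and APOL1 (8.25), and for SLC25A37 PHF20 (20.3) and GTF2I (21.8). AKIRIN2 came close to NFS1 in each list that held a peak, its best peaks having log2 enrichments of 2.26 in knockdown list 1, 3.11 in knockdown list 2 and 3.39 in control list 3, against 2.21, 3.17 and 3.32 for NFS1. The search selected for this closeness, so it is no separate result. CISD1 and SLC25A28 had peaks in fewer than 3 lists and were not matched.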

How the data were processed

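Per the labels' protocols, mRNA was fragmented, immunoprecipitated against m1A and sequenced as stranded libraries of 150 nt reads. The submitters' processing notes name FastQC 0.11.7, Trimmomatic 0.32, HISAT2 2.1.0 and hg19; no source used here gives the peak caller. The authors deposited, for each pull-down, a peak list with a log2 fold change, a p-value and a false discovery rate per peak, per the file headers. The sides of the fold change are not named. All deposited p-values lie below 1e-10 (highest 9.996e-11).

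Entries, 1 per transcript, were collapsed by position to distinct peaks, and starts are printed counted from 1. A region was given where all transcripts agreed. Groups were compared by two-sided exact permutation tests (Python 3.11.15, NumPy 2.4.6, SciPy 1.17.1) over all 10226 genes with Benjamini-Hochberg adjustment, checked on simulated data. No pair of lists shared identical peaks. The 6 genes, related groups and alternatives were chosen with earlier results of these data known. Named related genes had at least 2 more lists of one group (up to 4 per group), plus CISD3, ALKBH3 and the 2 nearest profiles of each gene with peaks in at least 3 lists. A gene that this rule also covers is not reported here.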

Additional observations from a re-analysis of the deposited data

How the results depend on the processing

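Of 203 alternative values 144 kept their sign or, for counts, stayed within 1.5 times, 52 moved to or from 0 or beyond that limit, and 7 turned sign. No p fell below 0.1, but with so few lists none of these tests could give a smaller one. Differences are knockdown minus control. For the percent of lists with a peak, CISD2 fell to 0 with at least 4-fold peaks, where CISD1 moved to 33.3 from an equal count. With a false discovery rate whose -log10 reached 10, chosen after all peaks were seen to pass 5, CISD1 was at 33.3, ISCU at 0 and SLC25A37 at 66.7. At equal list length NFS1 and SLC25A28 were at 0 and SLC25A37 at -33.3. With the longest knockdown list and the control list without any of these genes both left out, also added later, ISCU was at -100, CISD1 and SLC25A37 at -50, NFS1 and SLC25A28 at 0 and CISD2 at 50. The knockdown list left out held all 6 genes and the control list left out held none. No gene's percent difference could therefore rise, and the direction of these shifts was set in advance. By the most widely shared position ISCU and NFS1 were at 0, and CISD1 and SLC25A28 had no shared position. Leaving out 1 list at a time gave -33.3 to 33.3 for CISD1 and SLC25A37, -66.7 to -16.7 for ISCU, 16.7 to 66.7 for NFS1, 0 to 50 for SLC25A28 and 50 to 100 for CISD2, which was at 33.3 at equal list length. In peaks per 1000, the sign turned for CISD1 at 4-fold (0.0192) and at the stricter false discovery rate (0.0138), for CISD2 at 4-fold (-0.000396), and for SLC25A37 at the stricter rate (0.147). Without 1 list, CISD1 ran from -0.0234 to 0.00961, CISD2 from 0.0307 to 0.0753, NFS1 from 0.0136 to 0.205, ISCU from -0.275 to -0.0703 and SLC25A37 from -0.106 to 0.0357, and without both lists named above CISD1 was at -0.0330 and SLC25A37 at -0.158.

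Of all genes, 2055 had at least 2 more knockdown lists and 180 at least 2 more control lists. These became 1065 and 964 at equal list length, 510 and 271 without those 2 lists, and 297 and 4 for all lists of one group and none of the other. The control count was 72 at the stricter rate. Leaving out 1 list gave 403 to 4014 and 12 to 766. The limit of 2 lists stayed fixed there while 2 lists faced 3, so the direction of these shifts was set in advance. Coding peaks of the 6 genes numbered 27 in place of 15 when any transcript counted, and shared positions 0 in place of 5 at 50% reciprocal overlap. The causes of the other changes were not tested. Whether replicate numbers pair the samples is not settled. Knockdown and control samples of the same number correlated weakly (0.0366, 0.0413 and -0.0114 for numbers 1 to 3). With replicate number as a block, CISD2 kept 66.7 points with an exact p of 0.5, and 0.0524 per 1000 with 0.25, the smallest that block allows. Samples numbered 1 and 2 correlated best with their own number, those numbered 3 did not. Depth is unknown and limits each statement on a missing peak.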
